A study of Homo sapiens with 12 samples.

Results

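The lysosome and autophagy genes described here are 41 genes of 20036 in the deposited table, chosen by symbol. They comprise 7 lysosomal proteases, 4 other lysosomal hydrolases, 7 genes of the lysosomal membrane, its lumen and cholesterol export, and 5 genes of the proton pump. The others are the 3 transcription factors TFEB, TFE3 and MITF, 4 genes of autophagy initiation, 4 of phagophore expansion, 4 of the ATG8 family and 3 autophagy receptors. Of the 41 genes, 39 had at least 1 FPKM (fragments per kilobase of transcript, scaled to the mapped total of the library) in at least 3 of the 12 libraries and were tested. MITF and GABARAP did not.

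The lysosome is the acidic compartment in which cells digest proteins, glycans and lipids, and a proton pump in its membrane keeps it acidic. In autophagy a membrane sheet, the phagophore, closes around cytoplasm and fuses with the lysosome. ATG8 proteins are coupled to lipid on that membrane, and receptors such as the SQSTM1 product bind both ATG8 proteins and cargo. TFEB, TFE3 and MITF are related factors that bind short elements with the core CACGTG in promoters of lysosomal genes, and mTORC1 holds TFEB and TFE3 in the cytoplasm when nutrients are plentiful.

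All libraries came from MV-4-11, a line of human acute myeloid leukaemia that carries an internal tandem duplication in FLT3 and a KMT2A fusion, with the genotype labelled WT and the tissue labelled bone marrow. The groups were HPA-12, the (1R,3S) form of a compound that blocks ceramide transport by CERT, for 48 h; crenolanib, a FLT3 kinase inhibitor, for 48 h; the combination of HPA-12 and crenolanib for 48 h; and DMSO, the solvent, whose time is not given. Each group had 3 libraries. The doses are unknown here. Nothing states that replicate libraries are from different cultures, so the p-values cover the spread among libraries alone, and that spread may be technical. The 3 comparisons with DMSO share the DMSO libraries, so their values are set side by side and not related to each other.

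The combination libraries stood apart from the rest. By estimate, HPA-12 libraries held 12.1 to 12.8 M reads, crenolanib libraries 10.1 to 10.2 M, combination libraries 4.40 to 5.07 M and DMSO libraries 13.6 to 15.99 M. The 13 mitochondrially encoded genes held 21.1 to 22.1%, 35.9 to 36.2%, 61.6 to 62.6% and 19.6 to 20.003% of all FPKM in the same order of groups. Summed FPKM of 14 erythroid markers was 217 to 223 with HPA-12, 4377 to 4654 with crenolanib, 27566 to 28013 with the combination and 77.4 to 83.9 with DMSO. The sum of 13 monocyte and macrophage markers was 243 to 253, 485 to 523, 354 to 453 and 603 to 622, and that of 9 markers of the leukaemia line 498 to 507, 692 to 707, 570 to 606 and 771 to 779. Single markers did not all follow these sums. Against DMSO, of 8 tested leukaemia-line markers 6 were higher and 2 lower with HPA-12, and 5 and 3 with crenolanib. In the combination, as deposited, 2 were higher and 4 lower. Of 8 tested monocyte and macrophage markers, 2 were higher and 5 lower with HPA-12, 3 and 4 with crenolanib, and 2 and 2 with the combination as deposited. Of the defining markers, HBG2 was at 0 with HPA-12 and DMSO and HBA2 with HPA-12, CD68 was at 0 with crenolanib and the combination, FCGR3A with HPA-12, MRC1 with DMSO, and CD34 with crenolanib. Lymphoid markers summed to at most 7.04 FPKM and stromal and epithelial markers to at most 12.6. The part of these shifts in the results below was not tested. Fewer cells of a kind and less RNA per cell cannot be told apart in these bulk libraries. The total of each library is shared with mitochondrial and globin transcripts. Counts of genes and leading changes that involve the combination are therefore also given after median-ratio scaling. That scaling divides each library by its median ratio to the geometric mean of all libraries. It takes only genes above 0 in all 12 libraries, so the median change of all tested genes need not reach 0.

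In DMSO libraries the level per length of the 41 genes differed widely. GRN, which encodes progranulin, a secreted and lysosomal protein, was highest at 347 ± 9.69 FPKM (SD, n = 3), above 99.7% of all genes. CD63, a tetraspanin of late endosomes, followed at 133 ± 8.78 FPKM, and the next were CTSB at 85.5 ± 0.896 FPKM, LAMP1 at 82.7 ± 2.59 FPKM and MAN2B1 at 79.4 ± 2.87 FPKM, of which LAMP1 and MAN2B1 overlapped across libraries and CTSB lay just above both. At the low end of the tested genes stood WIPI1 at 3.27 ± 0.12 FPKM, ATG14 at 4.62 ± 0.244 FPKM, OPTN at 4.72 ± 0.224 FPKM and TFEB at 4.92 ± 0.199 FPKM. TFE3 was more abundant than TFEB, at 25.1 ± 1.73 FPKM.

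MITF was the least abundant of the 3 factors. It had 0.195, 0.201 and 0.221 FPKM with HPA-12, 0.321, 0.488 and 0.335 with crenolanib, 1.01, 0.478 and 0.586 with the combination, and 0.4553, 0.278 and 0.293 with DMSO, from 18 to 54 reads per library. GABARAP, an ATG8 gene, stood between 0 and 1.43 FPKM over the 12 libraries, from 0 to 28 reads, and was listed at 0 in 2 combination libraries. How reads that fall in more than 1 gene were counted is not given, so its low level is uncertain. Both are left out of the counts below. GABARAPL1 and GABARAPL2, close relatives of GABARAP, were well covered.

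**Figure D1:**
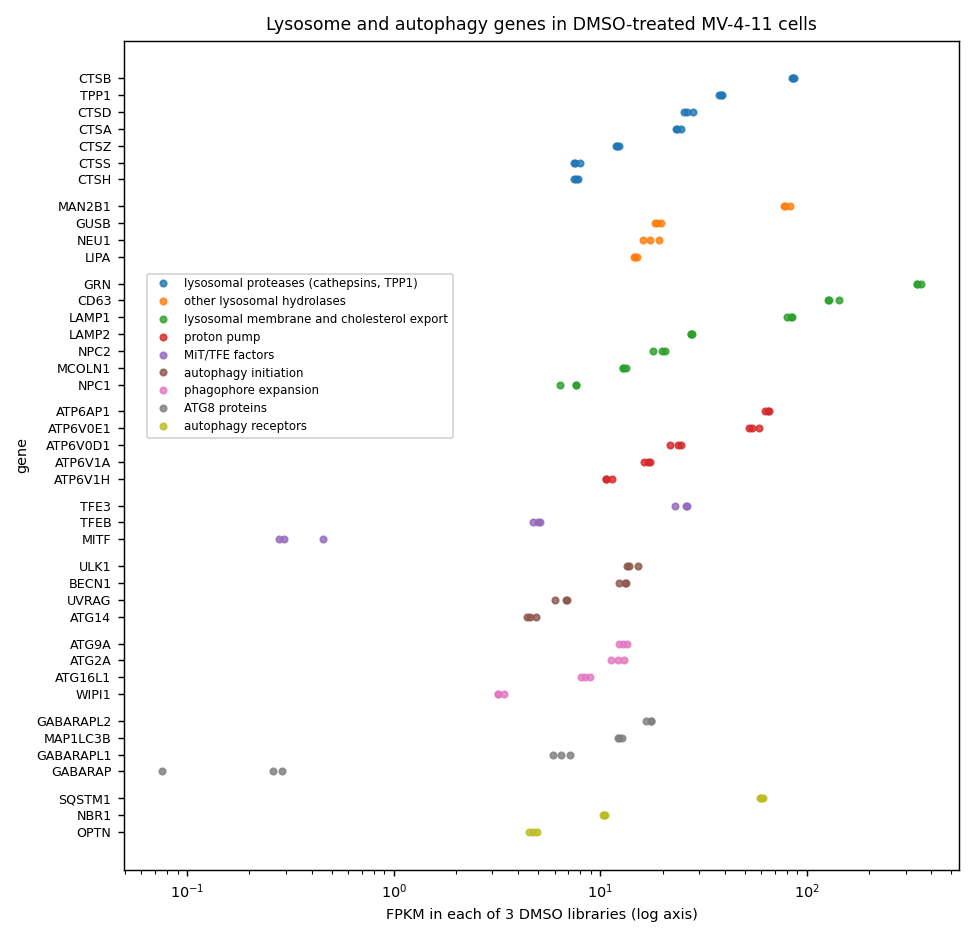
FPKM (log axis) of the 41 genes in each of the 3 DMSO libraries, grouped and coloured by role and ordered by mean within a role. GRN is highest at a mean of 347 FPKM, and MITF and GABARAP lie under 1 FPKM.

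Promoter sequences are shown for 4 genes because their windows hold TCACGTGA, the longer form of the element that TFEB and TFE3 bind. RefSeq promoter windows on GRCh38.p14, from 250 bases before to 50 after each start, were found for 34 of the 41 genes. CACGTG, which reads the same on both strands, was in a window of 8 of these genes, LAMP1, CTSA, MCOLN1, ATP6V0D1, CTSD, CD63, NEU1 and ATG14, that is in 8 of their 52 windows, and in 7.229% of 34943 windows of all genes. TCACGTGA, which contains it and also reads the same on both strands, was in LAMP1, CTSA, MCOLN1 and ATP6V0D1 and in 0.979% of all windows. With a G before and a C after it, it was in MCOLN1 alone of these genes and in 0.352% of all windows. A match is a description of the letters, not a bound site. The stretches below are written 5′ to 3′ on the strand of the gene, with CACGTG in capitals.
LAMP1, chr13:113297022-113297238, plus strand: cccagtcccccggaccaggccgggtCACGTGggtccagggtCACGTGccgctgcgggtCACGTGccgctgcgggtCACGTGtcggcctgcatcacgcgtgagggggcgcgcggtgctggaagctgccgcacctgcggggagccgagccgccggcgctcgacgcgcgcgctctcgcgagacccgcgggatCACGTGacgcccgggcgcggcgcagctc
CTSA, chr20:45891268-45891334, plus strand: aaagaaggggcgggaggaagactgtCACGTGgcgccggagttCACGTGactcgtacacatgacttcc
MCOLN1, chr19:7522558-7522623, plus strand: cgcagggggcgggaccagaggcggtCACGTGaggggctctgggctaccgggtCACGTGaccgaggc
ATP6V0D1, chr16:67481186-67481241, minus strand: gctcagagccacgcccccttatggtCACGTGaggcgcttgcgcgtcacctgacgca
LAMP1 holds 5 copies of CACGTG in the stretch shown, CTSA and MCOLN1 hold 2 each, and ATP6V0D1 holds 1. All of those shown end before the start of the gene, and a further copy in LAMP1 begins at the last base before it.

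Most of the 39 tested genes rose with HPA-12 alone. Relative to DMSO, 25 rose (43.2% of all 11149 genes rose) and 9 fell (34.5% of all genes), and their median log2 fold change was 0.35 beside 0.09 for all genes. Of the 25, 6 rose by at least 1 log2 unit (7.63% of all genes did), and 0 fell by as much (9.53% of all genes). The genes that rose most were the protease gene CTSB, the ATG8 genes GABARAPL1, GABARAPL2 and MAP1LC3B, the cholesterol exporter NPC1 and the factor TFE3. Each fold change is a difference of log2(FPKM + 1) ± its standard error, and each adjusted p comes from limma with Benjamini-Hochberg adjustment over all genes.

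Among the proteases, CTSB, a cysteine cathepsin, had 323, 306 and 315 FPKM with HPA-12, against 84.6, 85.4 and 86.4 FPKM with DMSO. All HPA-12 libraries were far above all DMSO libraries, a change of 1.87 ± 0.04 (adjusted p = 1.44e-10), and CTSB took 17.0% of the summed FPKM of the 41 genes with HPA-12, against 6.34% with DMSO. CTSD, an aspartic cathepsin, rose by 0.58 ± 0.06 and CTSS, a cathepsin of antigen processing, by 0.20 ± 0.07. CTSH, an aminopeptidase, moved the other way, with 4.09, 4.09 and 4.54 FPKM under HPA-12, against 7.48, 7.64 and 7.78 FPKM under DMSO, without overlap (-0.72 ± 0.07, adjusted p = 4.84e-06). CTSA, a carboxypeptidase that also protects NEU1, fell by 0.39. CTSZ and TPP1 did not pass, at 0.07 ± 0.05 and 0.04 ± 0.04.

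Of the other hydrolases, NEU1, the lysosomal sialidase, rose by 0.33 ± 0.06, and 3 of 4 fell. LIPA, the acid lipase that frees cholesterol from its esters, had 9.64, 10.5 and 9.48 FPKM with HPA-12, against 14.99, 14.7 and 14.5 FPKM with DMSO, and the groups did not overlap (-0.53 ± 0.06). MAN2B1, an alpha-mannosidase, and GUSB, the beta-glucuronidase, fell by 0.29 and 0.17.

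Among genes of the lysosomal membrane and lumen, 5 of 7 rose. NPC1, which exports cholesterol from the lysosome, had 18.9, 18.8 and 18.3 FPKM with HPA-12, against 6.35, 7.61 and 7.59 FPKM with DMSO. Every HPA-12 library exceeded every DMSO library (1.27 ± 0.07, adjusted p = 6.34e-08). The structural membrane protein genes LAMP1 and LAMP2 rose by 0.77 ± 0.04 and 0.56 ± 0.05. MCOLN1, a calcium channel, and NPC2, the soluble partner of NPC1, rose by 0.45 ± 0.05 and 0.33 ± 0.06. GRN had 364, 330.0 and 344 FPKM with HPA-12, against 358, 340.3 and 343 FPKM with DMSO, and these libraries overlapped (-0.01 ± 0.05). CD63 did not pass either, at 0.10 ± 0.06.

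Of the 5 proton pump genes, 4 rose. ATP6V1A, the catalytic subunit, had 25.7, 32.0 and 28.7 FPKM with HPA-12, against 17.4, 17.0 and 16.3 FPKM with DMSO, without overlap (0.73 ± 0.07). ATP6V1H, ATP6AP1 and ATP6V0D1, a regulatory subunit, an accessory protein and a subunit of the membrane sector, rose by 0.45 ± 0.06, 0.43 ± 0.05 and 0.32 ± 0.06. ATP6V0E1, another subunit of the membrane sector, was at -0.01 ± 0.05.

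Both tested MiT/TFE factors rose. TFEB had 11.1, 10.5 and 10.6 FPKM with HPA-12, against 5.09, 4.70 and 4.97 FPKM with DMSO (0.99 ± 0.07, adjusted p = 2.23e-07). TFE3 had 54.8, 53.9 and 54.8 FPKM with HPA-12, against 25.9, 23.1 and 26.3 FPKM with DMSO (1.09 ± 0.05, adjusted p = 2.45e-08). For both factors every HPA-12 library was above every DMSO library. Of the 8 genes with CACGTG in the promoter window, LAMP1, MCOLN1, ATP6V0D1, CTSD, NEU1 and ATG14 rose, CTSA fell and CD63 did not pass. Among all 39 tested genes, 25 rose, or 64.1%, beside 43.2% of all genes. A part of the factors in these changes was not tested.

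Among the autophagy genes, those of the ATG8 family all rose, and the other roles held members of both directions. ATG14, BECN1 and UVRAG, subunits of the lipid kinase complexes that start and mature autophagosomes, rose by 0.64 ± 0.08, 0.35 ± 0.06 and 0.21 ± 0.07, while ULK1, the initiating kinase, fell by 0.18. In phagophore expansion, WIPI1 rose by 0.47 ± 0.08 and ATG16L1 by 0.45 ± 0.06. WIPI1 binds the lipid that the lipid kinase complexes make, and ATG16L1 is a scaffold of ATG8 coupling. ATG9A, a lipid scramblase, and ATG2A, a lipid transfer protein, fell by 0.41 and 0.19. All 3 tested ATG8 genes rose. GABARAPL1 had 25.9, 24.6 and 25.2 FPKM with HPA-12, against 5.93, 7.09 and 6.44 FPKM with DMSO, the HPA-12 libraries lying far above (1.81 ± 0.07, adjusted p = 3.05e-09). GABARAPL2 rose by 1.09 ± 0.05 and MAP1LC3B by 1.05 ± 0.05. MAP1LC3B has a near-identical copy, MAP1LC3B2, and how reads shared between them were counted is not given, so its level is uncertain.

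Of the receptors, SQSTM1, which encodes p62, had 97.3, 90.3 and 89.3 FPKM with HPA-12, against 59.6, 59.9 and 61.4 FPKM with DMSO, without overlap (0.60 ± 0.05). NBR1, a relative of SQSTM1, rose by 0.63 ± 0.05. OPTN, a receptor for bacteria and damaged mitochondria, fell, with 1.96, 2.60 and 2.21 FPKM with HPA-12, against 4.50, 4.70 and 4.95 FPKM with DMSO (-0.82 ± 0.09). The calls of CTSS, GUSB, UVRAG, ULK1 and ATG2A were each lost without 1 library or another, among HPA-12 libraries 2 and 3 and the 3 DMSO libraries, with adjusted p from 0.0532 to 0.136. In a fit over all 12 libraries these 5 calls were also lost, and so were those of MCOLN1, BECN1 and ATP6V1H, with adjusted p of 0.0568, 0.066 and 0.115.

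**Figure D2:**
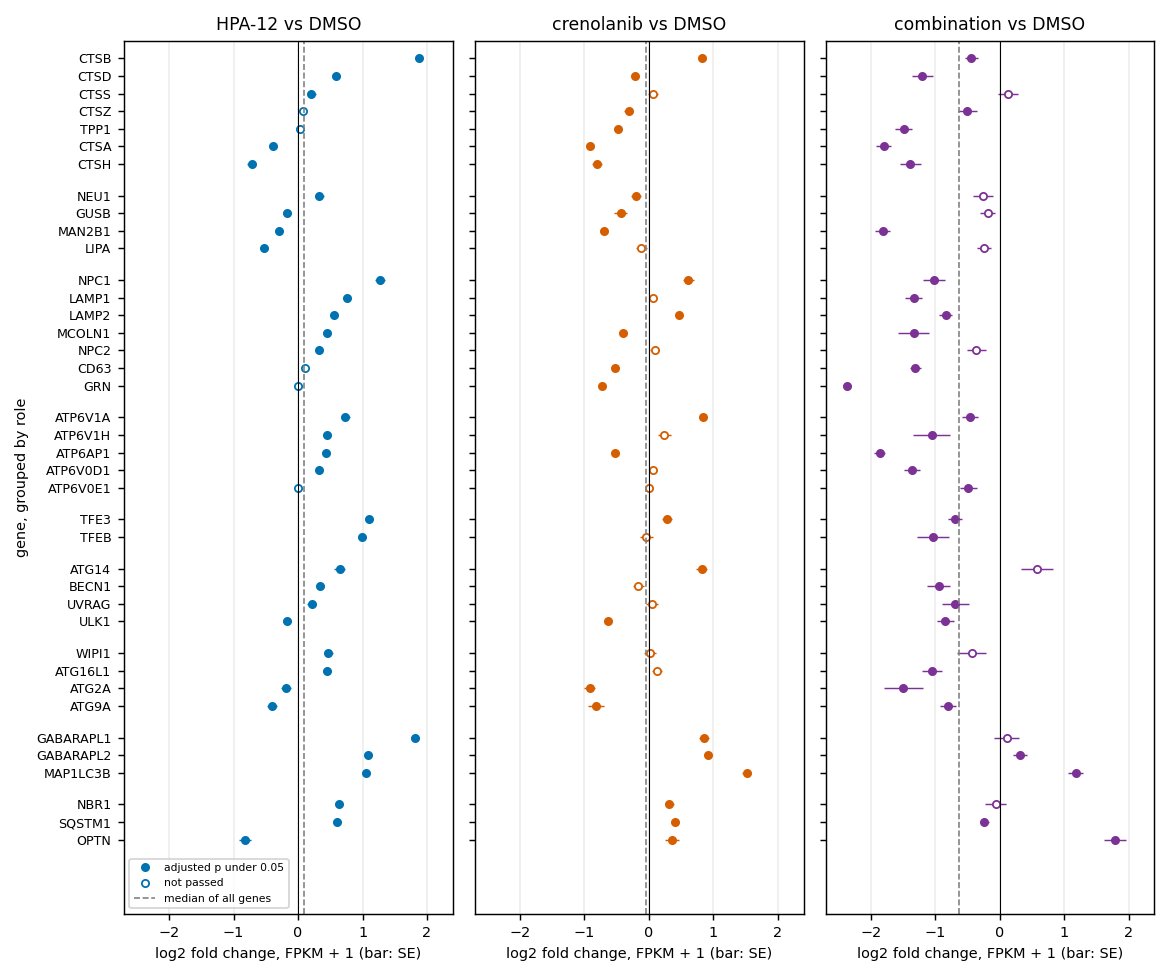
Log2 fold change (FPKM + 1, bars: SE) of 39 genes, grouped by role, for HPA-12, crenolanib and the combination against DMSO, 3 libraries each. Values are as deposited. Filled points passed an adjusted p of 0.05, and the dashed line is the median of all 11149 genes. Most filled points lie to the right with HPA-12 and to the left with the combination, where the median of all genes also lies to the left.

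Crenolanib alone moved the genes both ways, in shares no larger than those of all genes. Relative to DMSO, 12 rose (36.1% of all genes) and 15 fell (39.4% of all genes), with a median of 0.02 beside -0.04 for all genes. Of the 39, 1 gene, MAP1LC3B, rose by at least 1 log2 unit (10.7% of all genes did) and 0 fell by as much (7.96% of all genes). ATG8 genes and receptors rose, and most proteases and hydrolases fell. When mitochondrial genes were left out of each library's total, 18 rose and 13 fell. The shares of all genes under that setting are not given here, so these counts are not read as particular to these genes.

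All 3 tested ATG8 genes rose with crenolanib, and so did the 3 receptors, OPTN with the highest adjusted p of the 6 (0.0168). MAP1LC3B had 34.3, 37.4 and 40.3 FPKM with crenolanib, against 12.7, 12.2 and 12.3 FPKM with DMSO, and every crenolanib library was the higher (1.51 ± 0.07, adjusted p = 8.92e-08). GABARAPL2 and GABARAPL1 rose by 0.91 ± 0.05 and 0.85 ± 0.08. SQSTM1, OPTN and NBR1 rose by 0.40 ± 0.05, 0.36 ± 0.11 and 0.32 ± 0.06. ATG14 had 8.21, 9.06 and 9.52 FPKM with crenolanib, against 4.54, 4.90 and 4.43 FPKM with DMSO, without overlap (0.82 ± 0.08). ULK1 fell by 0.63, ATG2A by 0.92 and ATG9A by 0.82, while BECN1, UVRAG, WIPI1 and ATG16L1 did not pass.

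Among lysosomal genes, CTSB rose, with 146, 153 and 159 FPKM with crenolanib, against 84.6, 85.4 and 86.4 FPKM with DMSO (0.83 ± 0.04). The other proteases that passed fell, CTSA by 0.92, CTSH by 0.80, TPP1 by 0.48, CTSZ by 0.32 and CTSD by 0.21. MAN2B1, GUSB and NEU1 fell by 0.69, 0.44 and 0.20, and LIPA was at -0.12 ± 0.09. GRN had 205, 208 and 216 FPKM with crenolanib, against 358, 340.3 and 343 FPKM with DMSO, without overlap (-0.72 ± 0.04, adjusted p = 3.26e-07). CD63 and MCOLN1 fell by 0.52 and 0.41, whereas NPC1 and LAMP2 rose by 0.61 ± 0.08 and 0.47 ± 0.04. LAMP1 and NPC2 were at 0.06 ± 0.05 and 0.09 ± 0.07.

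Within the proton pump, ATP6V1A rose, with 29.6, 30.5 and 32.5 FPKM with crenolanib, against 17.4, 17.0 and 16.3 FPKM with DMSO (0.83 ± 0.06). ATP6AP1 fell by 0.52, with 46.6, 43.4 and 43.2 FPKM with crenolanib, against 65.3, 65.0 and 62.5 FPKM with DMSO. The other 3 subunits did not pass. TFE3 rose by 0.28 ± 0.07, and TFEB overlapped DMSO, with 5.22, 5.03 and 4.10 FPKM with crenolanib, against 5.09, 4.70 and 4.97 FPKM with DMSO (-0.04 ± 0.10). The calls of NEU1 and OPTN were each lost without 1 library or another, among crenolanib libraries 1 and 3 and the 3 DMSO libraries, with adjusted p from 0.0535 to 0.187. With no filter on low values both calls were lost as well, at 0.101 and 0.0569. The fit over all 12 libraries ended them too, at 0.19 and 0.0821, and also those of CTSD and MCOLN1, at 0.174 and 0.0755.

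Set directly against HPA-12, crenolanib gave lower levels of most of these genes: 28 were lower (35.1% of all genes) and 3 were higher (29% of all genes), with a median of -0.40 beside -0.05 for all genes. The largest differences were in CTSB (-1.04 ± 0.04), TFEB (-1.03 ± 0.10), GABARAPL1 (-0.96 ± 0.07) and ATP6AP1 (-0.95 ± 0.06). OPTN was higher with crenolanib, at 6.595, 5.20 and 7.36 FPKM, against 1.96, 2.60 and 2.21 FPKM with HPA-12 (1.18 ± 0.13). MAP1LC3B and LIPA were the other 2 higher with crenolanib, by 0.46 ± 0.07 and 0.42 ± 0.09. ATP6V1A and LAMP2, which rose with each drug, did not pass between the drugs (0.10 ± 0.08 and -0.09 ± 0.05). The calls of GUSB, ATG9A, GABARAPL2 and NPC2 were each lost without 1 HPA-12 library or another, 1, 2 or 3, and the first 3 of them also without crenolanib 1. In the fit over all 12 libraries the calls of GUSB, GABARAPL2, NPC2, ATP6V0D1, WIPI1 and NBR1 were lost, with adjusted p from 0.0502 to 0.124.

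**Figure D3:**
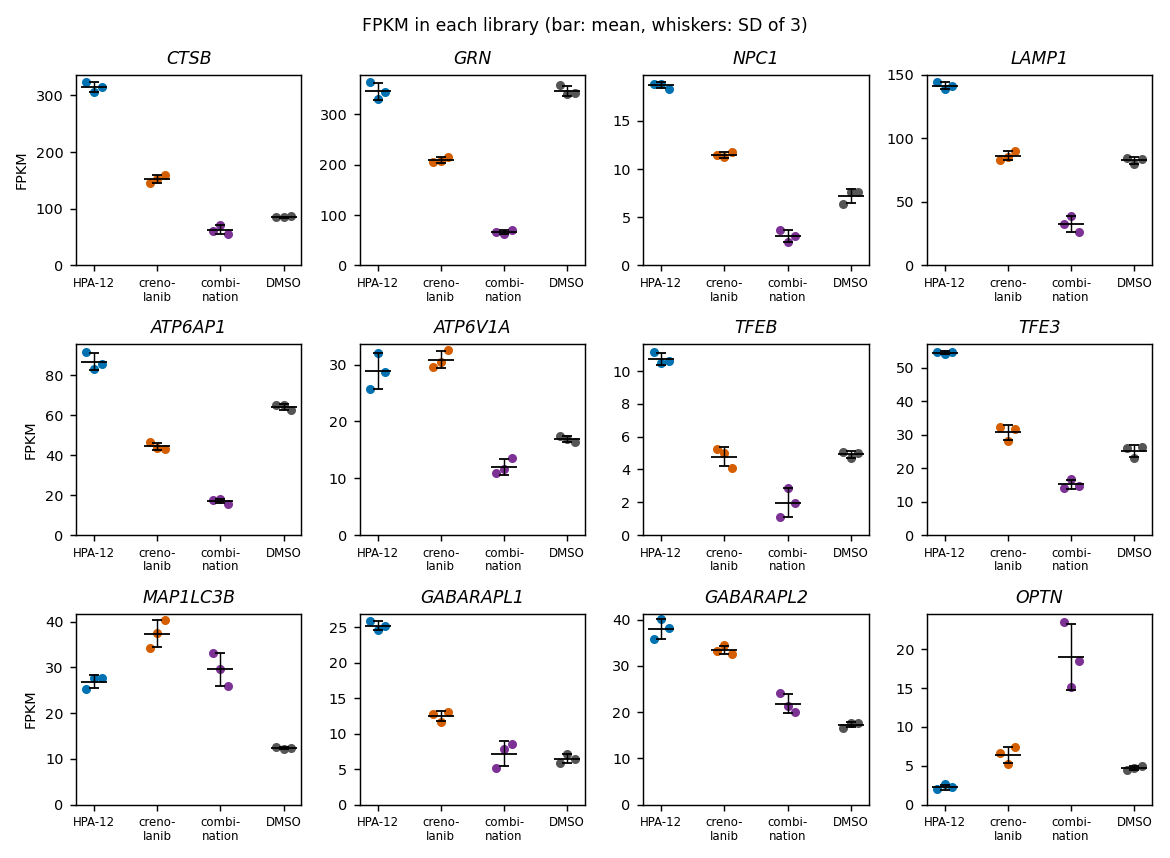
FPKM (linear axes from 0) of 12 genes in each library, by group, with the mean and SD of 3. CTSB, NPC1, LAMP1, TFEB, TFE3 and GABARAPL1 are highest with HPA-12, MAP1LC3B with crenolanib and OPTN with the combination.

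Most lysosomal genes were lower in the combination than in DMSO as deposited, but not after median-ratio scaling. The share of lower genes was then near that of all genes. MAP1LC3B and OPTN were higher both as deposited and after scaling. As deposited, 27 of 39 fell (50.1% of all genes) and 3 rose (12.4% of all genes), and the median was -0.80 beside -0.62 for all genes. By at least 1 log2 unit, 16 fell (33.3% of all genes) and 2 rose (6.8% of all genes). After median-ratio scaling the median of all genes was -0.12 and that of these genes -0.17, with 10 lower (26.1% of all genes) and 10 higher (21.4% of all genes). The genes that were lower under both scalings were GRN, ATP6AP1, MAN2B1, CTSA, CTSH, TPP1, CTSD, CD63, LAMP1 and ATP6V0D1, and those higher under both were OPTN, MAP1LC3B and GABARAPL2.

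GRN changed most among the lower genes. It had 65.7, 63.5 and 69.9 FPKM in the combination, against 358, 340.3 and 343 FPKM with DMSO, far apart (-2.37 ± 0.06, adjusted p = 8.15e-07; -1.68 after median-ratio scaling). ATP6AP1 had 17.4, 17.9 and 15.8 FPKM in the combination, against 65.3, 65.0 and 62.5 FPKM with DMSO (-1.86 ± 0.09 and -1.19). MAN2B1 had 20.6, 19.8 and 25.8 FPKM in the combination, against 82.6, 78.5 and 77.0 FPKM with DMSO (-1.81 ± 0.11 and -1.14). In these genes no combination library came near a DMSO library.

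The proteases that fell under both scalings were CTSA (-1.80 ± 0.11, and -1.18 after scaling), TPP1 (-1.49 ± 0.13 and -0.83), CTSH (-1.38 ± 0.17 and -0.85) and CTSD (-1.20 ± 0.16 and -0.55). At the membrane, LAMP1 fell by 1.33 and CD63 by 1.31 as deposited, and by 0.65 and 0.62 after scaling. CTSB fell by 0.44 as deposited and was at 0.24 after scaling, a change of sign that does not pass (adjusted p = 0.0865), and CTSZ, ATP6V0E1 and ATP6V1A likewise changed sign. SQSTM1 fell by 0.24 as deposited and rose by 0.45 after scaling. The factors TFEB (1.08, 2.88 and 1.97 FPKM in the combination, against 5.09, 4.70 and 4.97 FPKM with DMSO) and TFE3 (14.2, 16.7 and 14.5 against 25.9, 23.1 and 26.3) fell by 1.04 and 0.69 as deposited. After scaling they were at -0.54 and -0.03 and did not pass (adjusted p = 0.153 and 0.836).

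OPTN rose most. It had 23.5, 15.1 and 18.4 FPKM in the combination, against 4.50, 4.70 and 4.95 FPKM with DMSO (1.79 ± 0.17, adjusted p = 0.000179; 2.43 after scaling), and rested on 394 to 532 reads per combination library and 328 to 370 per DMSO library. MAP1LC3B had 33.1, 29.6 and 25.9 FPKM in the combination, against 12.7, 12.2 and 12.3 FPKM with DMSO (1.18 ± 0.12 and 1.85). GABARAPL2 rose by 0.32 ± 0.11, and by 0.98 after scaling. GABARAPL1 overlapped, with 5.22, 7.88 and 8.47 FPKM in the combination, against 5.93, 7.09 and 6.44 FPKM with DMSO (0.11 ± 0.20 as deposited, 0.72 and past the threshold after scaling). As deposited, the calls of GABARAPL2, SQSTM1, CTSZ, ATP6V0E1, ATP6V1A, ATP6V1H and UVRAG were each lost without 1 DMSO library or another, DMSO 1, 2 or 3, with adjusted p from 0.0516 to 0.12.

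Adding HPA-12 to crenolanib was read from the combination against crenolanib. As deposited, 27 genes were lower (47.3% of all genes) and 1, OPTN, was higher (6.79% of all genes), with a median of -0.74 beside -0.63 for all genes. After scaling, 10 were lower (12.9% of all genes) and 6 higher (13.6% of all genes), with medians of -0.13 for both these and all genes. Those lower under both scalings were CTSB, NPC1, GRN, LAMP1, LAMP2, MAN2B1, ATP6V0D1, ATP6V1A, ATP6AP1 and ATG16L1. NPC1 had 3.65, 2.46 and 3.09 FPKM in the combination, against 11.4, 11.2 and 11.8 FPKM with crenolanib (-1.63 ± 0.17, and -1.07 after scaling), without overlap. CTSB had 61.5, 71.6 and 55.7 FPKM in the combination, against 146, 153 and 159 FPKM with crenolanib (-1.27 ± 0.10 and -0.59). OPTN was higher by 1.43 ± 0.20, and by 2.07 after scaling. As deposited, CTSH, NPC2, MCOLN1, TFEB, BECN1, UVRAG, MAP1LC3B, GABARAPL1 and ATP6V0E1 each lost their call without 1 crenolanib library or another, 1, 2 or 3, and CTSH, NPC2 and MAP1LC3B also without combination 2 or 3.

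Adding crenolanib to HPA-12 was read from the combination against HPA-12. As deposited, 32 genes were lower (50.6% of all genes) and 1, OPTN again, was higher (11.9% of all genes), with a median of -1.29 beside -0.64 for all genes. After scaling, 19 were lower (24.3% of all genes) and 5 higher (21.5% of all genes), with a median of -0.64 beside -0.11. CTSB, GRN, ATP6AP1, NPC1, LAMP1 and TFEB were lower by more than 2 log2 units as deposited, at -2.31 ± 0.10, -2.37 ± 0.07, -2.29 ± 0.09, -2.28 ± 0.16, -2.10 ± 0.13 and -2.02 ± 0.24, and stayed lower after scaling, at -1.59, -1.65, -1.59, -1.68, -1.39 and -1.48. OPTN was higher by 2.61 ± 0.19. Without combination library 3, LIPA was also higher, which made 2. The calls of CTSH, CTSZ and WIPI1 were each lost without 1 HPA-12 library or another, HPA-12 1, 2 or 3.

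Many of these genes were lower with HPA-12 in the presence of crenolanib and higher with it in its absence. As deposited, 20 of 39 were both lower in the combination than in crenolanib and higher in HPA-12 than in DMSO (25.5% of all genes), and after scaling 8 were (8.14% of all genes): CTSB, LAMP1, LAMP2, NPC1, ATP6V0D1, ATP6V1A, ATP6AP1 and ATG16L1. These comparisons share no library. The difference between the effects, the interaction, was tested over all 12 libraries as the change by HPA-12 in the presence of crenolanib minus its change against DMSO. It was below 0 in 29 genes (50.1% of all genes) and above 0 in 3 (15.5% of all genes), with a median of -1.04 beside -0.65 for all genes. After scaling it was below 0 in 19 (29.6% of all genes) and above 0 in 7 (25.5% of all genes), with a median of -0.39 beside -0.13.

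The interaction was lowest in CTSB, at -3.14 ± 0.11 (adjusted p = 1.54e-09; -2.43 after scaling). NPC1 followed at -2.90 ± 0.17 (-2.29), GABARAPL1 at -2.56 ± 0.20 (-1.89) and LAMP1 at -2.16 ± 0.15 (-1.46). TFE3 and TFEB were at -2.07 ± 0.12 and -1.99 ± 0.27, and at -1.38 and -1.45 after scaling. By role, all 7 membrane and lumen genes, all 5 proton pump genes, both tested factors and all 3 tested ATG8 genes were below 0 as deposited. After scaling the same sign held in all of them but ATP6V0E1, at 0.21, and CD63, NPC2 and ATP6V0E1 did not pass. OPTN was the largest above 0, at 2.25 ± 0.23 (2.88 after scaling), followed by GUSB at 0.42 ± 0.16 and LIPA at 0.42 ± 0.15. Without HPA-12 library 3 or DMSO library 1, the calls of GUSB and LIPA were lost, which left 1 gene above 0. The call of GUSB was also lost without HPA-12 library 2, crenolanib library 1, combination library 2, or DMSO library 2 or 3. That of LIPA was also lost without crenolanib library 2.

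**Figure D4:**
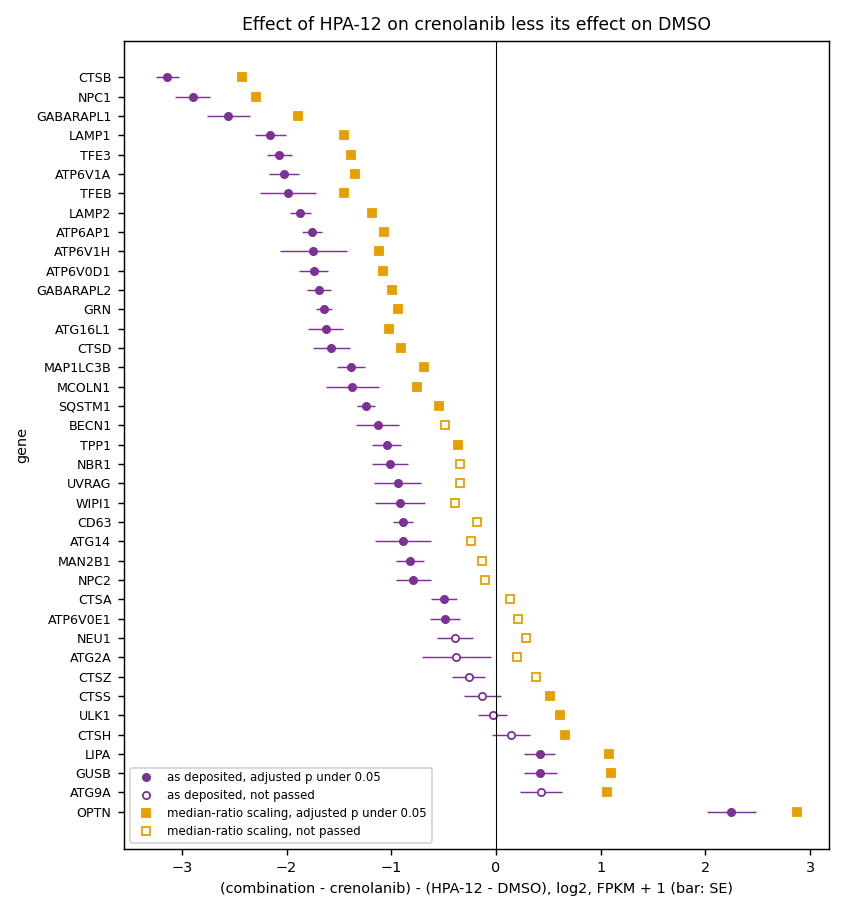
Interaction of 39 genes on the log2 scale (FPKM + 1), the change by HPA-12 on top of crenolanib minus that against DMSO, as deposited (circles, bars: SE) and after median-ratio scaling (squares), filled where the adjusted p was under 0.05. CTSB lies at -3.14 and OPTN at 2.25 as deposited, and scaling moves every gene to the right.

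Summed over the 41 genes, FPKM was 1809.9 to 1889 with HPA-12, 1229 to 1274 with crenolanib, 633 to 657 with the combination and 1331 to 1361 with DMSO. GRN held 18.7% of this sum with HPA-12, 16.9% with crenolanib, 10.2% with the combination and 25.7% with DMSO. CTSB held 17.0%, 12.3%, 9.69% and 6.34%. Per tested gene, the lowest read number in any library was 125 for OPTN with HPA-12, 104 for WIPI1 with crenolanib, 23 for WIPI1 with the combination and 148 for WIPI1 with DMSO, so low genes of the combination carry the most counting error.

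Other genes of the pathway, 152 in 9 lists of which 136 were tested, are given by list. With HPA-12, 78 rose and 32 fell, that is 57.4% and 23.5%, beside 43.2% and 34.5% of all genes. With crenolanib, 52 rose and 56 fell, or 38.2% and 41.2%, close to the 36.1% and 39.4% of all genes. With the combination, 13 rose and 80 fell as deposited, or 9.56% and 58.8%, beside 12.4% and 50.1% of all genes. After scaling 22 rose and 39 fell, or 16.2% and 28.7%, beside 21.4% and 26.1%. The counts of the single lists are small and are read against the same shares, and nothing is called particular to a list. DNASE2, the acid nuclease of the lysosome, rose with HPA-12 to 11.3 ± 0.719 FPKM, against 1.56 ± 0.184 FPKM with DMSO (2.27 ± 0.08). PLD3, a lysosomal nuclease, rose by 1.21 ± 0.05. Over the list of other hydrolases and activators, 17 of 30 rose and 9 fell with HPA-12, 8 rose and 17 fell with crenolanib, and 0 rose and 21 fell with the combination as deposited, against 2 and 11 after scaling.

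Of 25 other core autophagy genes, 17 rose and 2 fell with HPA-12, 12 rose and 5 fell with crenolanib, and 3 rose and 12 fell with the combination as deposited, against 5 and 4 after scaling. RUBCN, an inhibitor of autophagosome maturation, and TMEM41B, a lipid scramblase, rose by 1.82 ± 0.07 and 1.54 ± 0.08 with HPA-12. RB1CC1, the scaffold of the ULK1 complex, rose with crenolanib to 20.9 ± 0.786 FPKM, against 3.62 ± 0.211 FPKM with DMSO (2.25 ± 0.07). ATG13, another subunit of that complex, fell by 0.53 with crenolanib and by 1.52 with the combination, by 0.85 there after scaling. Among 9 other receptors and mitophagy genes, BNIP3L, a mitophagy receptor that also clears mitochondria in maturing red cells, rose in all 3 treated groups, to 38.9 ± 3.45 FPKM with HPA-12, 46.4 ± 2.25 with crenolanib and 48.5 ± 2.65 in the combination, against 14.5 ± 0.632 with DMSO. Erythroid markers were higher in the same groups, as given above, and their part in the BNIP3L values was not tested. TAX1BP1, a receptor for ubiquitin-marked cargo, rose by 0.90 ± 0.09, 1.48 ± 0.08 and 0.91 ± 0.16 in these groups. After scaling the changes in the combination were 2.35 for BNIP3L and 1.54 for TAX1BP1.

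In the mTORC1 and folliculin list, which controls where TFEB and TFE3 reside, 8 of 17 rose and 6 fell with HPA-12, 7 rose and 8 fell with crenolanib, and 4 rose and 9 fell with the combination as deposited, against 4 and 4 after scaling. FNIP1, the folliculin partner, rose to 12.5 ± 2.09 FPKM with HPA-12, 19.4 ± 0.395 with crenolanib and 8.77 ± 2.64 in the combination, against 3.65 ± 0.606 with DMSO, and its change in the combination was 1.04 ± 0.23 as deposited and 1.65 after scaling. RPTOR, the scaffold of mTORC1, fell to 5.89 ± 0.153 FPKM with HPA-12 and 1.55 ± 0.545 with the combination, against 13.7 ± 0.839 with DMSO. Its change in the combination was -2.55 ± 0.19 as deposited and -2.05 after scaling. MLST8, another subunit, fell by 1.08 with HPA-12 and by 1.21 with crenolanib. Of 9 sorting genes that deliver hydrolases by the mannose phosphate tag, 4 rose and 3 fell with HPA-12, 1 rose and 6 fell with crenolanib, and all 9 fell with the combination as deposited, 6 of them after scaling. IGF2R, the large receptor of that tag, was at 39.0 ± 2.44 FPKM with HPA-12 and 5.39 ± 0.451 with the combination, against 19.6 ± 2.01 with DMSO, rising by 0.96 ± 0.07 and falling by 1.69, and by 1.07 after scaling. Of 14 fusion genes, 9 rose and 3 fell with HPA-12, 5 rose and 7 fell with crenolanib, and 0 rose and 11 fell with the combination as deposited, against 1 and 6 after scaling. VAMP8, a fusion protein of the lysosome, was at 89.7 ± 17.1 FPKM in the combination, against 268 ± 16.0 FPKM with DMSO (-1.59 ± 0.13, and -0.90 after scaling).

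The remaining lists were the V-ATPase, transporter and protease genes outside the 41. Of 11 other V-ATPase subunits, 4 rose and 2 fell with HPA-12, 5 rose and 5 fell with crenolanib, and 0 rose and 4 fell with the combination as deposited, against 1 and 1 after scaling. ATP6V1B2, a subunit of the catalytic sector, had 21.5 ± 2.01 FPKM in the combination, against 68.9 ± 1.76 FPKM with DMSO (-1.64 ± 0.09, and -0.96 after scaling). Of 14 other membrane proteins and transporters, 9 rose and 4 fell with HPA-12, 5 rose and 4 fell with crenolanib, and 1 rose and 7 fell with the combination as deposited, against 3 and 5 after scaling. LAPTM4A rose by 1.09 ± 0.06 with HPA-12 and by 0.64 ± 0.09 with crenolanib. Of 7 other proteases, 3 rose and 3 fell with HPA-12, 4 rose and 2 fell with crenolanib, and 1 rose and 4 fell with the combination as deposited, against 2 and 0 after scaling. CTSC, which activates granule serine proteases, fell in all 3, by 0.51, 0.47 and 1.09, although after scaling the last of these did not pass (adjusted p = 0.0677).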

How the data were processed

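RNA of MV-4-11 cells was sequenced in 12 libraries, 3 per group. Per the file headers, the authors deposited FPKM per gene and library. Aligner, counter, strand setting and genome build: not given in the sources used here. With FPKM in place of counts, the limma branch of the design was used. The 11149 genes that reached 1 FPKM in 3 or more of 12 libraries were fitted with limma 3.58.1 in R 4.3.3 on log2(FPKM + 1), which understates changes of low genes, with only the 2 groups compared in the fit (all 12 for the interaction), a mean-variance trend, two-sided tests and Benjamini-Hochberg adjustment at 0.05.

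All 11149 genes (100%) came out as whole reads within 0.02 read in every library after comparing low values between libraries. Those reads gave relative depth and a voom alternative, and absolute depth came from GENCODE exon lengths, so depths are estimates. Every pair of libraries of a group differed by more than sampling noise. Median-ratio size factors ran from 0.699 to 1.2.

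The 41 genes and all lists were chosen with earlier results of these data known. Every one of the 41 is named, with library values for the largest changes within a role; pathway genes are up to 2 raised and 2 lowered per list and comparison, by size, with a mean of at least 5 FPKM and no overlap, of which some are given. Alternatives were pseudocount, filters, scaling, mitochondrial genes out of the total, 1 library left out, replicate block, a 12-library fit, robust empirical Bayes and voom.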

Additional observations from a re-analysis of the deposited data

Results flagged for a closer look

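For 22 of the 39 genes the effect of HPA-12 differed with crenolanib present and absent, both as deposited and after median-ratio scaling. The interaction test was limma over all 12 libraries with Benjamini-Hochberg adjustment. Of all genes, 50.1% were below 0 and 15.5% above 0 as deposited, and 29.6% and 25.5% after scaling. The share of all genes that passed under both is not given here, so the count of 22 is not read as particular to these genes. Values are log2 differences, the change by HPA-12 on top of crenolanib minus that against DMSO, as deposited and then after scaling. Among proteases, CTSB was at -3.14 and -2.43, CTSD at -1.57 and -0.90 and TPP1 at -1.04 and -0.37. At the lysosomal membrane and lumen, NPC1 was at -2.90 and -2.29, LAMP1 at -2.16 and -1.46, LAMP2 at -1.87 and -1.19, GRN at -1.64 and -0.93 and MCOLN1 at -1.37 and -0.76. In the proton pump, ATP6V1A was at -2.02 and -1.34, ATP6AP1 at -1.76 and -1.07, ATP6V1H at -1.74 and -1.12 and ATP6V0D1 at -1.74 and -1.08. The factors TFE3 and TFEB were at -2.07 and -1.38, and at -1.99 and -1.45.

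Among autophagy genes, GABARAPL1 was at -2.56 and -1.89, GABARAPL2 at -1.69 and -0.99, MAP1LC3B at -1.39 and -0.68, ATG16L1 at -1.63 and -1.02 and SQSTM1 at -1.25 and -0.54. The 3 above 0 were OPTN at 2.25 and 2.88, GUSB at 0.42 and 1.10 and LIPA at 0.42 and 1.08. As deposited, the calls of GUSB and LIPA were lost without single libraries, as given above. Depth was lower and mitochondrial and erythroid transcripts were higher in the combination libraries, with the values given above, and their part in these differences was not tested.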

How the results depend on the processing

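Median-ratio scaling moved the counts of every comparison with the combination. It gave 10 higher and 10 lower against DMSO, 6 higher and 10 lower against crenolanib, 5 higher and 19 lower against HPA-12, and 7 interactions above 0 and 19 below. It changed the sign of 15 calls, and the cause was not tested. Against DMSO these were CTSB (0.24), CTSZ (0.13), ATP6V0E1 (0.19), ATP6V1A (0.19) and SQSTM1 (0.45). Against crenolanib they were NPC2 (0.19), ATP6V0E1 (0.18), MAP1LC3B (0.33), GABARAPL2 (0.065) and SQSTM1 (0.034), against HPA-12 CTSZ (0.081), NEU1 (0.097) and ATP6V0E1 (0.23), and in the interaction CTSA (0.14) and ATP6V0E1 (0.21). Against HPA-12, the combination had 2 genes higher in the 12-library fit, OPTN and LIPA, and 3 with no filter, where MITF also passed (0.48, adjusted p = 0.0322). MITF had 18 to 33 reads per combination library and 18 to 21 per HPA-12 library. Interactions above 0 numbered 1 with mitochondrial genes out of the total. Leaving out each library in turn gave 1 to 2 genes higher in the combination than in HPA-12 and 1 to 3 interactions above 0, and moved no other count by over 1.5 times. With voom, chosen after seeing the data, 4 rose and 27 fell in the combination against DMSO. Same-numbered libraries did not deviate together (18 correlations from -0.0294 to 0.068, 0 over 0.1). Whether they share a culture or batch is not given, and deviations from means of 3 libraries cannot decide it. The replicate block left 25 genes higher and 8 lower for HPA-12, 12 and 14 for crenolanib and 2 and 25 for the combination, each against DMSO. Depth limits the combination most: the median tested gene had 282 reads there, against 1236 with DMSO.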
